A study of Mus musculus with 25 samples.

Results

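The 6 genes Grm2, Grm3, Grm4, Grm5, Grm7 and Grm8 of the metabotropic glutamate receptor family were followed across the cortex of transgenic and wild type mice. They were taken by symbol from the authors' count table and are 6 of its 21720 genes. All 6 were among the 16515 genes that passed the filter on low counts. Total RNA of the brain cortex was sequenced from 25 male mice aged 6 months, 5 in each of 5 groups and 1 library per mouse. The combination group received (-)-vestitol and salviolone at 2.5 mg/kg each, the vestitol group (-)-vestitol at 5 mg/kg, the salviolone group salviolone at 5 mg/kg, and the model control vehicle. These 4 groups were B6C3 mice of the genotype APPswe, PSEN1dE9, an amyloid model. The wild type group was C57BL/6J and received vehicle. All were injected into the peritoneum once a day for 3 months. Strain and genotype differ together between the transgenic and the wild type mice and cannot be told apart. Vestitol belongs to the plant isoflavans, and salviolone to the diterpenoids found in Salvia.

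Metabotropic glutamate receptors are dimeric G protein-coupled receptors that bind glutamate in a large extracellular domain. Group I receptors, such as mGluR5 from Grm5, couple through Gq to phospholipase C and sit mainly beside the postsynaptic density. Group II (mGluR2 and mGluR3, from Grm2 and Grm3) and group III (mGluR4, mGluR7 and mGluR8, from Grm4, Grm7 and Grm8) couple through Gi/o to adenylyl cyclase and mostly reduce transmitter release. In the cortex mGluR2 is largely neuronal, whereas mGluR3 is also abundant in astrocytes. In mouse models mGluR5 has been described as a partner of the cellular prion protein in the response of neurons to amyloid-beta oligomers.

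Library totals ran from 59376320 to 109776852 counts, and the 3 deepest libraries, mice 3, 4 and 5 of the combination group, held 100379303 to 109776852. Levels are given as CPM, which are counts scaled by the library size after TMM adjustment, as mean ± SD over mice. A member had at least 829 counts in each library (Grm8 in salviolone mouse 4) and at most 16797, so that none rested on few counts. App, which encodes the amyloid precursor and to which a transgene of this genotype adds, averaged 4262 ± 354 CPM in model control mice, against 1672 ± 165 CPM in wild type mice (SD, n = 5 each; log2 fold change 1.35 ± 0.08, SE). The labelled tissue was set against marker lists. Markers of cortical excitatory neurons summed to 1312 to 2104 CPM over all libraries and none was at 0. Markers of hypothalamus summed to 396 to 642 CPM in the combination, 78.8 to 133 CPM with vestitol, 81.4 to 97.3 CPM with salviolone, 80.5 to 265 CPM in model control mice and 106 to 607 CPM in wild type mice.

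In mm39 coordinates from the files, Grm2 lies at chr9:106520294-106533281, Grm3 at chr5:9535541-9775170, Grm4 at chr17:27641361-27740377, Grm5 at chr7:87233601-87784115, Grm7 at chr6:110622542-111544191 and Grm8 at chr6:27275118-28134544. No other gene of the table overlaps any of the 6. Whether reads were counted by strand is not given in the sources used here.

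Between genes, levels were compared per length. In the authors' FPKM, a count scaled by gene length and depth, Grm5 was highest with 28.6 ± 4.07, followed by Grm7 with 19.5 ± 1.27, Grm8 with 10.6 ± 1.55, Grm4 with 9.13 ± 1.56, Grm3 with 8.57 ± 1.03 and Grm2 with 6.88 ± 1.59 FPKM (SD over 25 mice). Grm5 was above Grm7, and Grm7 above Grm8, in 25 of 25 mice. Grm8 was above Grm4 in 17 mice and Grm4 above Grm3 in 16, so that the order of these neighbours varied between mice. Differences between genes were not tested. Grm3 was above Grm2 in 24 of 25 mice. The order below Grm5 and Grm7 rests on the gene lengths behind the FPKM, which the counts imply to be 1483 bases for Grm8 and 8809 for Grm3. The GENCODE M21 exon union is 9898 bases for Grm8 and 3049 for Grm3. Divided by that union, Grm3 came first with 24.8 ± 3.07 CPM per kilobase, before Grm5 with 14.1 ± 1.93, Grm7 with 9.81 ± 0.58, Grm2 with 8.49 ± 2.01, Grm4 with 7.40 ± 1.27 and Grm8 with 1.59 ± 0.24. The annotation behind the counts is not given, so counts from 1 annotation may be divided here by lengths from another. Grm5 stayed above Grm7 in 25 of 25 mice on this scale and per longest coding transcript.

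**Figure D1:**
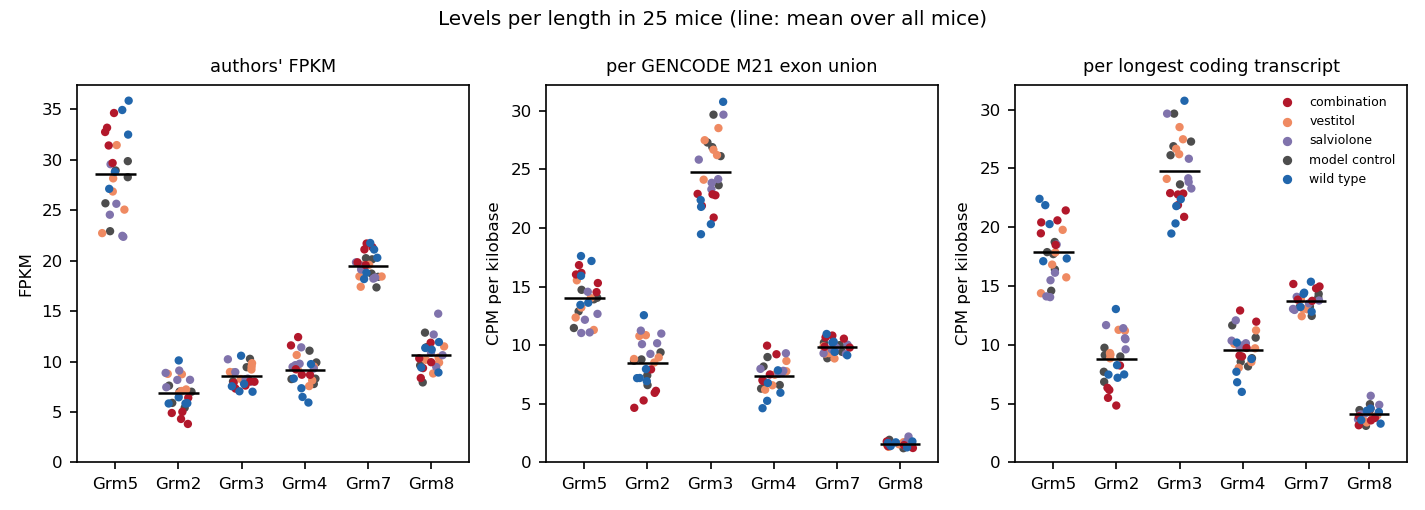
Levels of the 6 genes per length in 25 mice, as the authors' FPKM (left), CPM per kilobase of the GENCODE M21 exon union (middle) and CPM per kilobase of the longest coding transcript (right); dots are mice coloured by group and lines are means over all mice. Grm5 lies above Grm7 in each panel, whereas Grm3 is first in the middle and right panels and Grm8 last in both.

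A gene was called, and is said to rise or fall, at a p under 0.05 from the quasi-likelihood test of edgeR, adjusted by the Benjamini-Hochberg method over the 16515 genes. Between the combination and the model control, 1 of 6 members was called, Grm2, which fell; 7.13% of all genes tested were called lower, 7.83% higher and 15% were called in either direction. Between the combination and the mean of the 2 single-compound groups, 3 of 6 were called (24.1% of all genes). Grm2 and Grm3 fell (11.2% of all genes were called lower) and Grm5 rose (12.9% were called higher). With vestitol 0 of 6 members were called against the model control (0% of all genes), and 0 of 6 had an unadjusted p under 0.05. With salviolone 0 of 6 were called (0.0242% of all genes) and 1, Grm2, had an unadjusted p under 0.05. DESeq2 also called 0 of 6 in each of these. Between the model control and wild type, 0 of 6 were called (11.6% of all genes, 5.37% higher and 6.21% lower), with 3 at an unadjusted p under 0.05 and 0 called by DESeq2. Between all transgenic mice and wild type, 1 of 6 was called, Grm4, which was higher (6.12% of all genes were called higher and 14.1% in either direction). The median log2 fold change of the 6 was -0.0024 for the combination against the model control (all genes 0.0037) and -0.034 against the single compounds (all genes 0.0052). It was -0.0036 for the model control against wild type (all genes -0.0060). The comparisons share the model control or the treated groups, so their calls are not independent of each other.

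**Figure D2:**
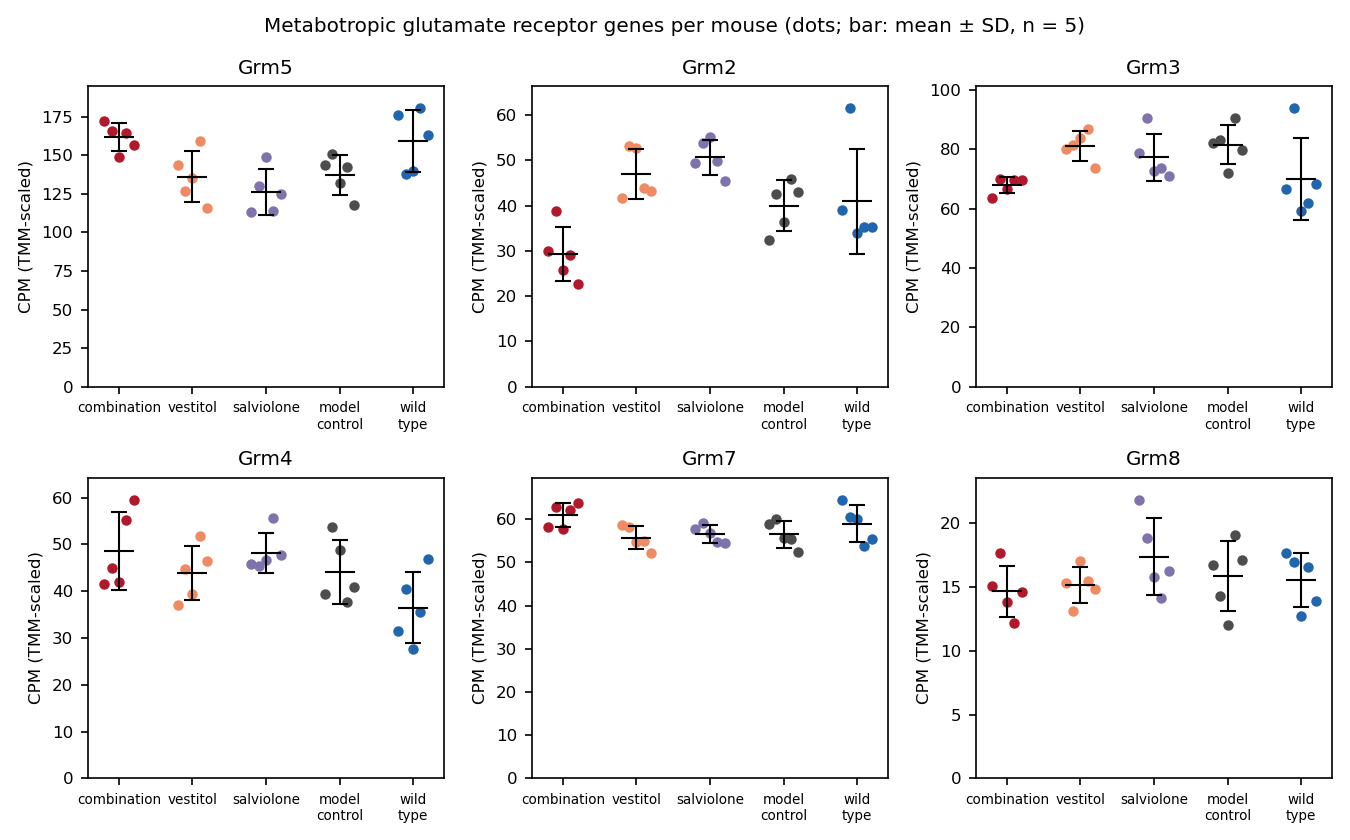
CPM of the 6 genes in each mouse, with groups from left to right as combination, vestitol, salviolone, model control and wild type; dots are mice and bars are the mean ± SD (n = 5). Grm2 in the combination, at 22.8 to 38.8 CPM, lies below both single-compound groups, at 41.7 to 55.0 CPM, and wild type mouse 2 stands above the other wild type mice for Grm2 and Grm3.

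Grm5, the group I member, was at 172, 166, 149, 164 and 157 CPM in the combination mice, at 144, 127, 135, 159 and 116 CPM with vestitol and at 113, 130, 149, 114 and 125 CPM with salviolone. The model control had 144, 151, 132, 143 and 117 CPM and wild type 176, 138, 140, 180 and 163 CPM. The combination and wild type mice were mostly high and the other groups mostly low, and in each comparison at least 1 mouse overlapped with the other group. Grm5 averaged 162 ± 9.05 CPM in the combination, 136 ± 16.5 CPM with vestitol and 126 ± 14.8 CPM with salviolone (SD, n = 5 each). Against the mean of the single compounds it rose by a log2 fold change of 0.30 ± 0.08 (SE; adjusted p = 0.00507 in edgeR's test), and it was called in each of the 15 fits that left out 1 mouse, at 0.27 to 0.34. Against the model control, at 137 ± 13.0 CPM, the log2 fold change of the combination was 0.23 ± 0.09 and was not called (edgeR adjusted p = 0.0844). In the model control against wild type, at 159 ± 19.97 CPM, it was -0.21 ± 0.09 and was not called (edgeR adjusted p = 0.130).

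Grm2 and Grm3 encode the group II receptors, which act as autoreceptors for glutamate and, for mGluR3, also respond to the peptide NAAG. The 250 bases upstream of their RefSeq starts (GRCm38.p6 coordinates) are shown because both genes fell together in the combination against the single compounds; capitals mark GC boxes (GGGCGG, found on either strand).
Grm2, chr9:106656110-106656359, minus strand: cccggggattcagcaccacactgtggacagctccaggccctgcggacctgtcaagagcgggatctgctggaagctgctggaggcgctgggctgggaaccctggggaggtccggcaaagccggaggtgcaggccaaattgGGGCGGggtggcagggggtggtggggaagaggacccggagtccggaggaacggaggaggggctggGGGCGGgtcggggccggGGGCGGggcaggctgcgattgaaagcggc
Grm3, chr5:9725353-9725602, minus strand: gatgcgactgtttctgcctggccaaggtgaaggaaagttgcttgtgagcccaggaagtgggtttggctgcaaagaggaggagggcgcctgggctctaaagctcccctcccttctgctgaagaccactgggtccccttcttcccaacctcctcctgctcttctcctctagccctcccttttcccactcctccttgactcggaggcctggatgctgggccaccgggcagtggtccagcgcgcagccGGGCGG
The Grm2 window held 3 GC boxes and the Grm3 window 1 (at its 3' end), and 32.7% of 32851 windows of the same length in the RefSeq table held at least 1. The Grm2 window had a GC content of 71.2% and the Grm3 window of 62.4%. The windows held no E box (CACGTG, in 6.02% of windows), cAMP response element (TGACGTCA, 1.55%) or TATA box (TATAAA, 12.4%) on either strand, and a CCAAT box (CCAAT, 33.8%) was found in that of Grm2. RefSeq windows were matched for 4 of the 6 members. Grm7 and Grm8, not called against the single compounds, had GC boxes too. Each Grm7 window held 1, and of the Grm8 windows 1 held 1 and the others 0. The shares over all windows were not matched for GC content.

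Grm2 was at 29.9, 38.8, 25.9, 29.0 and 22.8 CPM in the combination mice, at 41.7, 53.1, 52.8, 43.8 and 43.2 CPM with vestitol and at 49.4, 53.8, 55.0, 49.8 and 45.3 CPM with salviolone. The model control had 32.3, 42.5, 36.3, 45.9 and 43.0 CPM and wild type 38.98, 61.5, 33.9, 35.2 and 35.2 CPM. All combination mice were below all 10 single-compound mice, and combination mouse 2 overlapped with the model control. Grm2 averaged 29.3 ± 6.03 CPM in the combination, 46.9 ± 5.55 CPM with vestitol and 50.6 ± 3.87 CPM with salviolone (SD, n = 5 each). Against the mean of the single compounds it fell by 0.74 on the log2 scale (SE 0.13, edgeR adjusted p = 0.000204), and each of the 15 fits without 1 mouse called it, at -0.86 to -0.66. In this comparison 4.57% of all genes separated in this way, with the combination below. Against the model control, at 40.0 ± 5.55 CPM, it fell by 0.45 on the log2 scale (SE 0.15, edgeR adjusted p = 0.0406). That call was kept in 3 of 10 fits that left out 1 mouse. It was lost without model control mouse 2, 4 or 5 or combination mouse 1, 3, 4 or 5, at log2 fold changes of -0.46 to -0.38 and edgeR adjusted p of 0.068 to 0.113. Without the 3 deepest combination libraries the log2 fold change was -0.22 (edgeR adjusted p = 0.535) against the model control and -0.50 (edgeR adjusted p = 0.0728) against the single compounds. That fit keeps combination mice 1 and 2 alone, which had the highest Grm2 of their group. It cannot tell library depth from the choice and number of mice.

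Grm2 did not pass the test for either compound alone. Its log2 fold change against the model control was 0.34 ± 0.15 with salviolone (edgeR adjusted p = 0.370) and 0.23 ± 0.15 with vestitol (edgeR adjusted p = 0.754). The model control differed from wild type, at 41.0 ± 11.6 CPM, by -0.03 ± 0.15 (95% interval -0.34 to 0.27), and by 0.16 without wild type mouse 2.

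Grm3 was at 63.7, 69.8, 66.7, 69.5 and 69.7 CPM in the combination mice, at 79.9, 81.3, 83.8, 87.0 and 73.5 CPM with vestitol and at 78.8, 90.4, 72.7, 73.7 and 71.0 CPM with salviolone. The model control had 82.0, 83.2, 72.1, 90.4 and 79.7 CPM and wild type 66.5, 93.8, 59.4, 62.0 and 68.2 CPM. The combination mice lay below every mouse of the other 3 transgenic groups, and 4 of 5 wild type mice did too. Grm3 averaged 67.9 ± 2.68 CPM in the combination, 81.1 ± 5.01 CPM with vestitol and 77.3 ± 7.88 CPM with salviolone (SD, n = 5 each). Against the mean of the single compounds it fell by 0.22 on the log2 scale (SE 0.08, edgeR adjusted p = 0.0423). The call held without vestitol mouse 5 or salviolone mouse 3, 4 or 5, and not without any of the other 11 mice (edgeR adjusted p = 0.0546 to 0.109). Against the model control, at 81.5 ± 6.61 CPM, the log2 fold change was -0.26 ± 0.09, which was not called (edgeR adjusted p = 0.0509) although the groups did not overlap, as for 5.59% of all genes with the combination below. It was called without model control mouse 3 (-0.31, edgeR adjusted p = 0.0330). Without the 3 deepest combination libraries, with combination mice 1 and 2 left, it was -0.29 against the model control (edgeR adjusted p = 0.201). Against the single compounds it was then -0.25 (edgeR adjusted p = 0.211).

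For the model control against wild type, at 70.0 ± 13.8 CPM, the log2 fold change of Grm3 was 0.22 ± 0.09 (edgeR adjusted p = 0.119), not called. Without wild type mouse 2 it was 0.35 and was called (edgeR adjusted p = 0.000844), and leaving it out put all transgenic mice above wild type by 0.26 (edgeR adjusted p = 0.00184). The 8 astrocyte markers, a cell type that carries mGluR3, summed to 3954 to 4447 CPM in the combination, 4571 to 5117 CPM in the model control and 3960 to 4488 CPM in wild type, but Slc1a2, which carries most of that sum, was the one astrocyte marker called in the combination against the model control. Of the 8 markers 4 were on the higher and 4 on the lower side there (median 0.047), and the mean log2 CPM over them was 7.70 ± 0.043 in the combination and 7.68 ± 0.036 in the model control. Their part in the Grm3 levels was not tested.

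The group III genes encode presynaptic receptors, of which mGluR7 has the lowest affinity for glutamate. Grm4 was at 41.5, 44.8, 41.9, 55.2 and 59.5 CPM in the combination mice, 37.1, 44.7, 39.3, 51.7 and 46.5 CPM with vestitol and 45.8, 45.3, 46.7, 55.7 and 47.7 CPM with salviolone. It was at 39.4, 53.7, 48.9, 37.6 and 40.9 CPM in model control mice, against 31.4, 40.5, 27.6, 35.5 and 47.0 CPM in wild type mice. Wild type mice 1, 3 and 4 were below every transgenic mouse, and wild type mice 2 and 5 overlapped with them. Over all transgenic groups against wild type, Grm4 was higher by a log2 fold change of 0.34 ± 0.11 (edgeR adjusted p = 0.0340). The call held in 22 of 25 fits without 1 mouse and was lost without wild type mouse 1, 3 or 4 (0.26 to 0.33, edgeR adjusted p = 0.1002 to 0.137). With limma-voom it was not called either (0.31, adjusted p = 0.0540). Of 10 striatum markers 0 were called in this comparison, of 11 hypothalamus markers 7 were lower in the transgenic mice, and of 8 microglia markers 5 were higher and 1 lower. With the hypothalamus score, described further on, as a covariate Grm4 was at 0.33 (edgeR adjusted p = 0.123). With the striatum score it was at 0.35 and called (edgeR adjusted p = 0.00924). Of 12 settings other than leaving out a mouse, 10 called it. For the model control alone against wild type it was 0.28 ± 0.13 and not called (edgeR adjusted p = 0.188).

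Grm7 varied least of the 6 in CPM, with a coefficient of variation over 25 mice of 5.91%, against 23.6% for Grm2. It averaged 60.9 ± 2.79 CPM in the combination, 55.7 ± 2.72 CPM with vestitol, 56.6 ± 1.98 CPM with salviolone, 56.5 ± 3.10 CPM in model control mice and 58.9 ± 4.28 CPM in wild type mice (SD, n = 5 each). The combination differed from the mean of the single compounds by 0.12 ± 0.05 in log2 fold change, not called (edgeR adjusted p = 0.0641). Grm8 ran from 12.0 to 21.8 CPM over all mice and the 5 groups overlapped. Its log2 fold changes in the 7 comparisons were between -0.20 and 0.13, none called.

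Vestitol and salviolone were given at the same dose, and their groups were compared directly for the 6 genes. None of the 6 was called (0.684% of all genes were), and edgeR adjusted p ran from 0.597 to 0.929. The 95% interval of the log2 fold change of vestitol over salviolone was -0.41 to 0.19 for Grm2, -0.12 to 0.26 for Grm3, -0.41 to 0.14 for Grm4, -0.08 to 0.30 for Grm5, -0.13 to 0.09 for Grm7 and -0.46 to 0.07 for Grm8. With 5 mice a group, these data do not exclude differences within these bounds. In the combination each compound was given at a lower dose than alone, so a change against the single compounds mixes dose and pairing.

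**Figure D3:**
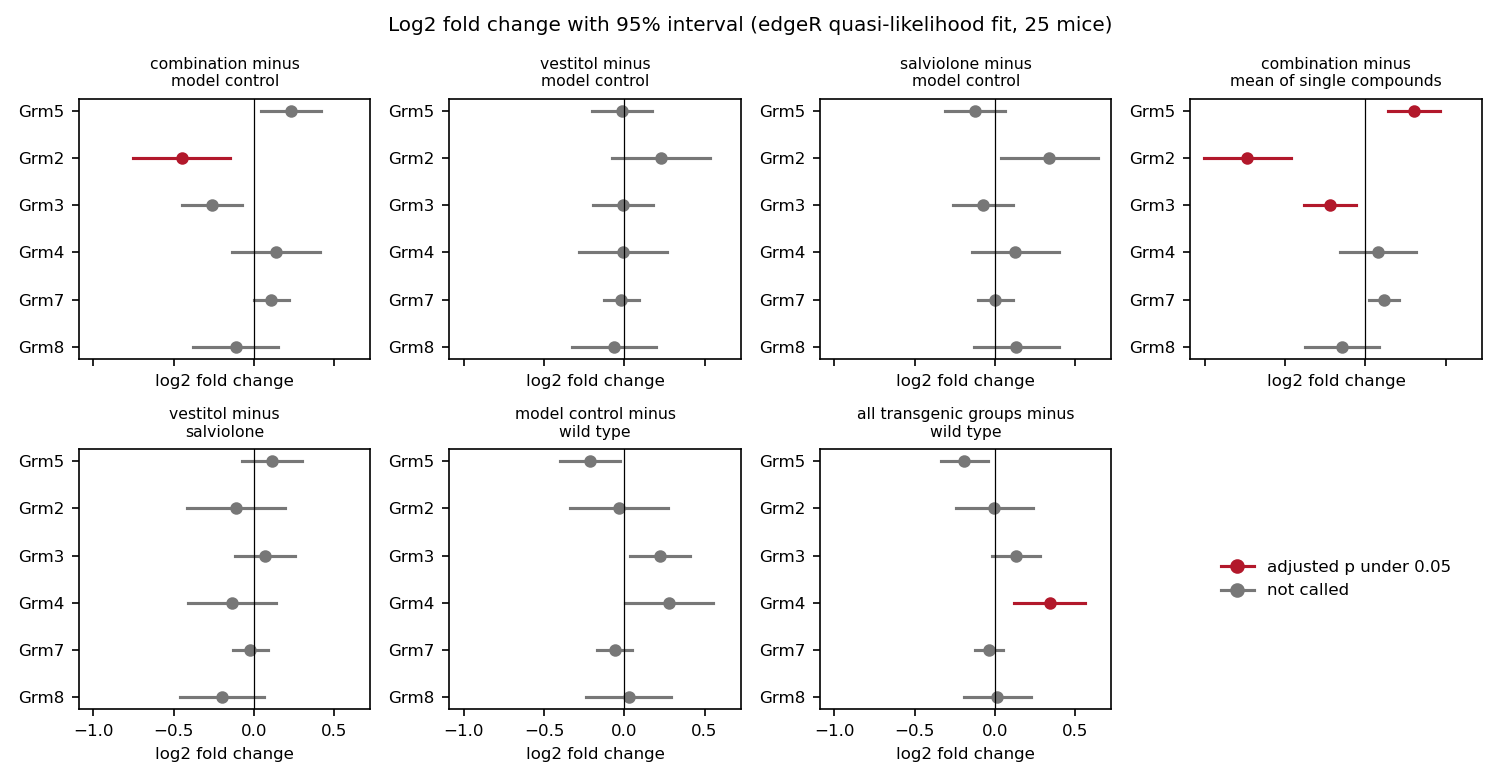
Log2 fold changes of the 6 genes in the 7 comparisons, with 95% intervals from the edgeR fit of 25 mice; red marks an adjusted p under 0.05. Grm2, Grm3 and Grm5 are called in the combination against the mean of the single compounds, Grm2 in the combination against the model control and Grm4 in all transgenic mice against wild type.

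Markers of other brain regions moved with the combination. Their part in the results was not tested, and the fits that follow are a description. Between the combination and the model control, 7 of 11 hypothalamus markers rose and 0 fell, with a median log2 fold change of 2.88. Of these, Avp and Oxt, which encode the peptides vasopressin and oxytocin, averaged 16.9 ± 14.4 and 4.82 ± 3.66 CPM in the combination, against 0.961 ± 1.54 and 0.195 ± 0.213 CPM in the model control (SD, n = 5 each). Of 10 striatum markers 8 rose (median 0.63, summing to 1807 to 2539 CPM in the combination and 1192 to 1568 CPM in the model control). Of 8 markers of cortical excitatory neurons 3 fell and 1 rose (median -0.39, 1312 to 1701 CPM in the combination and 1635 to 2079 CPM in the model control). Of 8 astrocyte markers 1 fell (median 0.047), and of 5 markers of oligodendrocyte precursors 3 rose. Against the single compounds 9 of 11 hypothalamus and 9 of 10 striatum markers rose, and 6 of 8 of cortical excitatory neurons fell. A score was taken as the mean of log2 CPM over a list. With the hypothalamus score as a covariate the log2 fold change of Grm2 was 0.036 against the model control and -0.21 against the single compounds, and that of Grm3 was -0.021 and 0.045. In that fit 0 of all genes were called in either comparison. The score was 2.39 to 3.51 in the combination and at most 1.93 in the other transgenic mice. The groups did not overlap in it, so this fit cannot tell score and treatment apart. With the striatum score as a covariate Grm2 was at -0.39 (edgeR adjusted p = 0.321) and -0.65 (edgeR adjusted p = 0.124), and Grm5 at 0.095 and 0.11, none called. Grm3 was further from 0 with that score, at -0.40 against both the model control (edgeR adjusted p = 0.0752) and the single compounds (edgeR adjusted p = 0.101), and not called. The striatum score was 6.85 to 7.55 in the combination, at most 6.68 in the model control and at most 6.24 with salviolone. With vestitol, mouse 4 alone reached the combination, at 7.03. Score and treatment can thus hardly be told apart in this fit either. In bulk tissue, more or fewer cells of a kind and more or less RNA per cell cannot be told apart.

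Within the groups the same markers moved with 2 of the members. After each value was set against its group mean, Grm2 was lower where the hypothalamus score was higher (Pearson's r = -0.60, two-sided permutation p = 0.00203, adjusted 0.0162 over 24 pairs, Spearman's rho = -0.49, n = 25). Without the 2 mice farthest from the median score r was -0.25, so this relation rests on those mice. Grm2 was higher where the score of cortical excitatory neurons was higher (r = 0.62, adjusted permutation p = 0.0162, rho = 0.57, and r = 0.41 without 2 mice). Grm4 was higher where the striatum score was higher (r = 0.60, adjusted permutation p = 0.0162, rho = 0.56), and r was 0.57 without 2 mice. The other 21 pairs of member and score were not called. Wild type mouse 2, with the highest Grm2 of all mice, had a hypothalamus score of -0.83, against 1.57 to 3.04 in the other wild type mice. Model control mouse 1, with the lowest Grm2 of its group, had 1.93, against -0.86 to 0.04. These are the 2 mice left out above. Vestitol mouse 1 went the other way, with the lowest Grm2 of its group (41.7 CPM) and its lowest score (-1.34). Combination mouse 2 had the highest Grm2 of its group (38.8 CPM) at a score of 3.41.

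**Figure D4:**
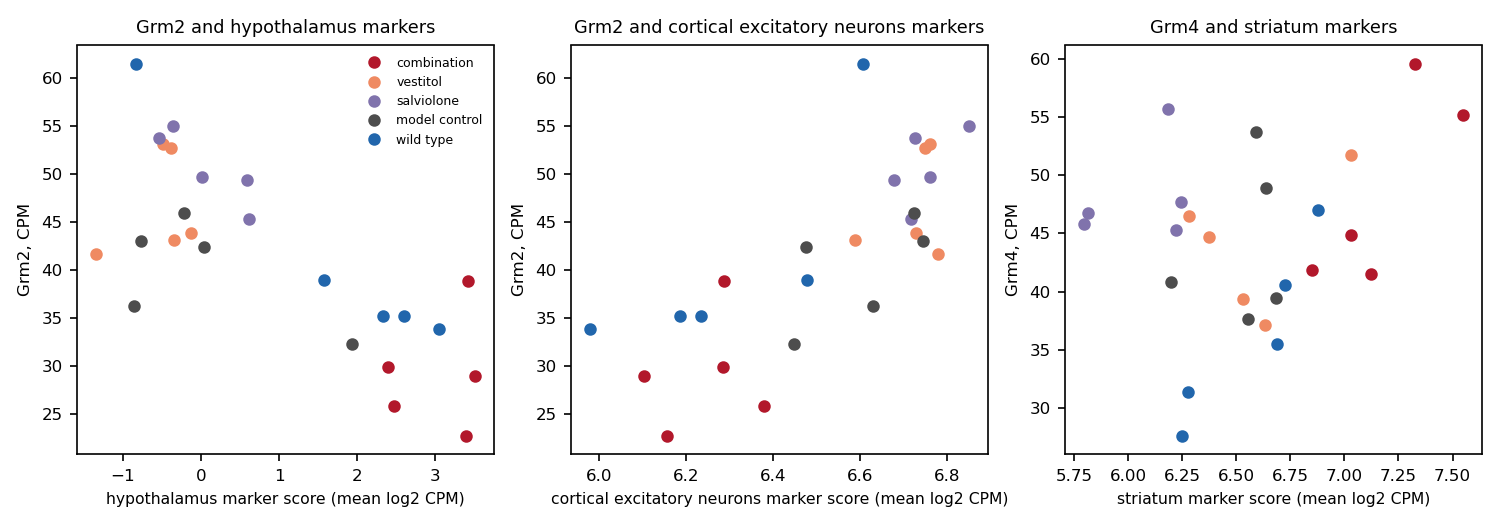
Grm2 in CPM against the score of hypothalamus markers (left) and of cortical excitatory neuron markers (middle), and Grm4 in CPM against the score of striatum markers (right), where a score is the mean log2 CPM of a list and each dot is a mouse coloured by group. The 5 combination mice lie at hypothalamus scores of 2.39 to 3.51 and at Grm2 levels of 22.8 to 38.8 CPM.

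Among the members themselves, 1 of 15 pairs was called over the 25 mice after centring on group means. Grm2 and Grm3 varied together (r = 0.64, adjusted permutation p = 0.0192 over 15 pairs, rho = 0.47), with r = 0.40 without the 2 mice farthest from the median of Grm2; ranks gave no call (adjusted permutation p = 0.134). Of 12734 genes with a mean log2 CPM of at least 1, those named as most like a member across the mice, after centring, were Rasal2 (r = 0.85) and Camk2g (0.78) for Grm2, Gabrg3 and Tmf1 (both 0.83) for Grm3, Pcp4l1 (0.83) and Ppp2r5d (0.82) for Grm4, Adgrl3 (0.82) for Grm5, Orc6 (0.78) and Slc25a25 (0.73) for Grm7 and Zfp65 (0.77) and Ccnh (0.75) for Grm8. These correlations describe 25 libraries, with no test. In FPKM the ratio of Grm5 to Grm2 was 5.11 to 8.24 in the combination, 2.85 to 4.35 with vestitol, 2.73 to 3.30 with salviolone, 3.27 to 5.34 in the model control and 2.68 to 6.14 in wild type.

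Genes around the receptors were counted in 6 lists with 99 genes tested. Between the combination and the model control, 13 of the 99 rose and 28 fell, while 58 were not called, with a median of -0.032 against 0.0037 over all genes, of which 7.83% were called higher and 7.13% lower. The count of lowered genes was 18 without model control mouse 5 and 17 without combination mouse 4. Without the 3 deepest combination libraries, which leaves mice 1 and 2 of that group, 6 rose and 4 fell. With the striatum score as a covariate 2 rose and 4 fell, and with the hypothalamus score 0 did either. With vestitol and with salviolone 0 of 99 were called against the model control.

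Of 23 receptor scaffolds and regulators, 3 rose and 6 fell in the combination (3 fell without model control mouse 5 or combination mouse 4). Elfn1, a synaptic adhesion protein that binds mGluR7 across the synapse, averaged 43.0 ± 3.41 CPM in the combination and 23.2 ± 4.30 CPM in the model control, a log2 fold change of 0.89 ± 0.15. Ncdn, the gene of neurochondrin, a partner of mGluR5, rose by 0.28 ± 0.06, and the postsynaptic scaffold gene Dlgap1 fell by 0.36 ± 0.07. Of 17 genes of the Gq and phospholipase C arm, through which mGluR5 signals, 1 rose and 8 fell. The protein kinase C genes Prkca and Prkcb fell by 0.36 ± 0.07 and 0.38 ± 0.10, and the channel gene Trpc5 rose by 0.57 ± 0.14. The 8 became 5 without model control mouse 3 or 4, 4 without combination mouse 1 and 3 without model control mouse 5 or combination mouse 4, and the count of raised genes became 2 without model control mouse 1.

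Of 24 genes of the Gi/o and adenylyl cyclase arm, through which the group II and III receptors signal, 5 rose and 7 fell in the combination. Adcy1, a calcium-stimulated adenylyl cyclase of cortex and hippocampus, averaged 1053 ± 169 CPM in the combination and 1843 ± 200 CPM in the model control, and fell by 0.81 ± 0.13. Adcy5, the main adenylyl cyclase of striatum, averaged 711 ± 107 CPM in the combination and 461 ± 54.5 CPM in the model control, and rose by 0.63 ± 0.11. Kcnj9, a subunit of G protein-gated potassium channels, fell by 0.53 ± 0.08. Of 16 genes of glutamate and NAAG supply and clearance, 2 rose and 3 fell. Slc1a2, the main glutamate transporter of astrocytes, fell by 0.32 ± 0.06, and Rimkla, an NAAG synthetase gene, rose by 0.53 ± 0.13. These calls, from Elfn1 to Rimkla, held in each of the 10 fits that left out 1 mouse. With the striatum score those of Elfn1 and Kcnj9 held, and with the hypothalamus score none did. Without the 3 deepest combination libraries those of Dlgap1, Prkca, Prkcb and Rimkla were lost (edgeR adjusted p = 0.0529 to 0.160), and the others held.

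Of 12 genes of receptor-coupled translation and long-term depression, 1 rose and 4 fell in the combination (2 fell without model control mouse 2 or 4 or combination mouse 1, 4 or 5). Arc, an activity-dependent gene that removes AMPA receptors from synapses, averaged 194 ± 30.4 CPM in the combination and 499 ± 144 CPM in the model control and fell by 1.37 ± 0.33. Its call was lost with the striatum score (-1.61, edgeR adjusted p = 0.0798) and the hypothalamus score (-0.25, edgeR adjusted p = 0.928). It was also lost without the 3 deepest combination libraries (-1.33, edgeR adjusted p = 0.125). Fmr1, whose protein represses translation downstream of mGluR5, fell by 0.31 ± 0.05, a call lost among these settings with the hypothalamus score alone. Ptpn5, a tyrosine phosphatase gene abundant in striatum, rose by 0.25 ± 0.07, a call that held in 4 of 10 fits without 1 mouse and was lost without model control mouse 2, 4 or 5 or combination mouse 1, 4 or 5. With the striatum score Ptpn5 was at 0.039 (edgeR adjusted p = 0.850). Its call was also lost with the hypothalamus score (edgeR adjusted p = 0.504) and without the 3 deepest combination libraries (edgeR adjusted p = 0.110). Of 7 genes of the prion protein, Fyn and Pyk2 partners of mGluR5, Camk2b alone was called (0.17 ± 0.059, edgeR adjusted p = 0.0476), in 2 of 10 fits without 1 mouse, without model control mouse 3 or combination mouse 3. The call of Camk2b was lost with either score and without the 3 deepest combination libraries (edgeR adjusted p = 0.0642 to 0.529).

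Between the model control and wild type, 11 of the 99 rose and 10 fell, while 78 were not called (5.37% of all genes were called higher and 6.21% lower). Hypothalamus markers moved in this comparison too, with 5 of 11 lower in the model control (median -1.49). With their score as a covariate 2 of the 99 were called, App and Prnp. Both are among the 11 that rose, and a transgene adds to App. The 21 called genes became 12 without model control mouse 2. Leaving out mouse 4 of the wild type group gave 9 and leaving out its mouse 2 gave 40, and they were 5 when only these 10 mice entered the fit. Homer1, the scaffold that binds mGluR5, averaged 166 ± 20.6 CPM in model control mice, against 109 ± 18.5 CPM in wild type mice, a log2 fold change of 0.61 ± 0.12 (edgeR adjusted p = 0.00265). Grip1 and Grk3, a scaffold and a receptor kinase, fell by 0.51 ± 0.10 and 0.30 ± 0.07. Prkca rose by 0.32 ± 0.07, and Cacna1b, a presynaptic calcium channel gene, fell by 0.26 ± 0.05. Prnp, the gene of the prion protein, averaged 1856 ± 146 CPM in model control mice, against 652 ± 40.4 CPM in wild type mice, and rose by 1.51 ± 0.07. In the widely used line of this genotype its promoter drives the transgenes. Whether reads from the transgenes were counted as Prnp was not tested. These calls, from Homer1 to Prnp, held in each of the 10 fits without 1 mouse. With only these 10 mice in the fit those of Prkca and Cacna1b were lost, and with the hypothalamus score all but that of Prnp. Those of Arc (1.24 ± 0.33, in 8 fits), Plcb4 (0.67 ± 0.19, in 6), Cacna1a (0.26 ± 0.08, in 5), Gls2 (0.37 ± 0.11, in 5), Slc7a11 (-0.33 ± 0.10, in 5) and Kcnj9 (0.28 ± 0.08, in 4) did not. Arc was lost without wild type mouse 1 or 4, and each of the others without wild type mouse 3 or 4. Cacna1a, Gls2, Slc7a11 and Plcb4 were also lost without wild type mouse 1, Gls2, Slc7a11, Kcnj9 and Plcb4 without model control mouse 2, Cacna1a, Gls2, Slc7a11 and Kcnj9 without mouse 5 of that group, Cacna1a and Kcnj9 without its mouse 3 and Kcnj9 without its mouse 4.

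**Figure D5:**
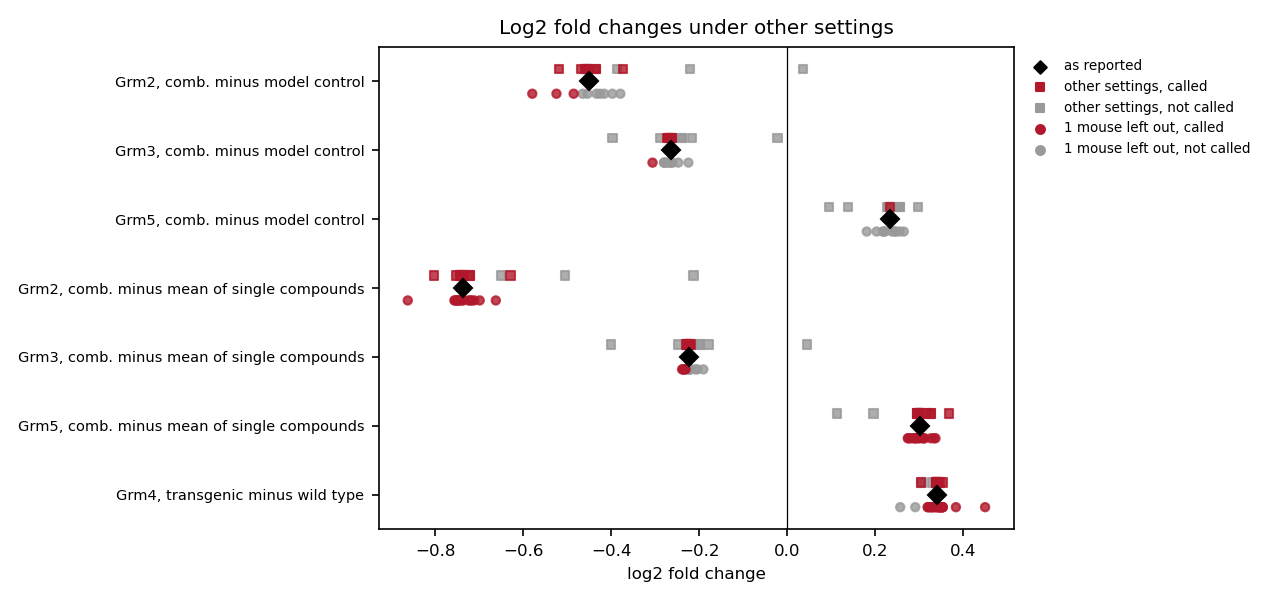
Log2 fold changes of the members called in at least 1 comparison, and of Grm3 and Grm5 in the combination against the model control, as reported (diamonds), with 1 mouse left out (circles) and under the other settings (squares); red marks an adjusted p under 0.05. For the combination against the model control Grm2 ranges from -0.58 to -0.38 with 1 mouse left out, and the square at 0.036 is the fit with the hypothalamus score.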

How the data were processed

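Per the labels' protocols, the authors prepared libraries from cortex total RNA, naming a TruSeq RNA kit V2 and a SMARTER mRNA-Seq kit. Per the submitters' processing notes, Trim Galore, STAR and the build mm39 were used; no source used here gives versions, the annotation, the counting tool or its use of strand. The authors deposited raw counts per gene and FPKM. Of count values from 4 to 39, 44.3% were multiples of 4 (25% by chance; 22.0% of the 150 member counts), and counts divided by 4 were tried.

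The members and lists were chosen with earlier results of these data known. All 25 libraries entered 1 edgeR 4.0.16 fit (R 4.3.3, TMM, filterByExpr with a minimum count of 10, robust quasi-likelihood, two-sided), with 7 comparisons adjusted over 16515 genes (99.99% of counts). Tested on simulated data for the combination against the model control (16328 genes), it called 67% of genes changed by 1 on the log2 scale and 45.5% of those changed by 0.5. The changed genes were drawn at random whatever their counts, so these shares need not hold for the members. Named genes were the members, App, Prnp and up to 3 called genes of smallest adjusted p per list in each of the 4 main comparisons, plus 2 genes most like each member. A few genes that this rule takes are not reported here. Avp and Oxt were named after their values were seen. The 15 marker lists covered cortical cell types, vessels, coverings and other brain regions; some of their genes are also expressed in cortex. Correlations used 100000 permutations (scipy 1.17.1). The labels do not tie mice to litters or batches, and p-values measure the spread between mice. Alternatives were RLE, 2 other filters, DESeq2 1.42.0, limma 3.58.1 (voom with sample weights; log2 of FPKM plus 0.1 or 1), the contrast's groups only, a replicate block, marker scores as covariates and leaving out each mouse; the combination without its 3 deepest libraries and levels per GENCODE length were added after seeing the data. Sequences are from RefSeq (GRCm38.p6).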

Additional observations from a re-analysis of the deposited data

Results flagged for a closer look

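Wild type mouse 2 stood apart in its group for 2 of the 6 genes. Its Grm2, at 61.5 CPM, was far above the other 4 wild type mice, at 33.9 to 38.98 CPM, and its Grm3, at 93.8 CPM, above their 59.4 to 68.2 CPM. The gap to the nearest mouse was 0.816 of the group's range for Grm2 and 0.742 for Grm3, against a critical value of 0.710 for 5 samples. For Grm4, salviolone mouse 4 at 55.7 CPM stood above the other 4 mice of its group, at 45.3 to 47.7 CPM, with a gap of 0.765 of the range. Among 30 groups of 5 values, 3 stood out in this way, and chance gives about 1 in 20. The hypothalamus score of wild type mouse 2 was the lowest of its group, and its part in these values was not tested.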

How the results depend on the processing

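Of 552 tests of a member under settings other than leaving out a mouse, 500 kept direction and side of the threshold, 20 turned sign, 14 lost and 18 gained a call; the cause was not tested. For the combination against the model control, members called were 2 (Grm2 and Grm3) with RLE, at least 1 CPM in 5 samples, DESeq2, limma-voom, counts divided by 4 and the replicate block, 3 (Grm5 added) with the contrast's groups only, and 0 with the hypothalamus or the striatum score or without the 3 deepest combination libraries. Against the single compounds they were 0 with either score and 1 (Grm5) without those libraries. The call of Grm3 there was also lost in the 3 settings with FPKM (-0.20 to -0.18, limma adjusted p = 0.0621 to 0.0786). Limma-voom called 2 (Grm3 and Grm5) for the model control and 2 (Grm3 and Grm5, not Grm4) for all transgenic mice against wild type, and the hypothalamus score left 0 for all transgenic mice. Pairs of members called by ranks were 0. Grm7 against the single compounds, not called as reported, was called in 6 of 14 other settings, which were limma-voom, the 3 with FPKM, the contrast's groups only and the replicate block (0.12). Same-numbered mice did not deviate together (r -0.092 to 0.091 over 50 pairs, 4 of 25 mice closest to their own number), so the numbers do not pair mice. Without 1 mouse, members called were 0 to 2 for the combination against the model control, 2 to 3 against the single compounds, 0 to 3 for all transgenic mice and 0 to 1 for the model control against wild type.

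Of all genes, the combination against the model control called 2471 as reported, 914 without the 3 deepest libraries, 143 with the striatum score and 0 with the hypothalamus score. Against the single compounds it called 3972, 2016, 85 and 0. Without those libraries the combination had mice 1 and 2 left, so the counts also reflect fewer mice. The model control against wild type called 1913, 349 with these groups only and 103 with the hypothalamus score, and all transgenic mice 2336 and, with that score, 779. DESeq2 called 44 genes for vestitol (0 as reported), 116 for salviolone (4 as reported) and 276 between them (113 as reported).

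These values turned sign. Grm2 was at 0.092 (model control against wild type, limma-voom) and, for all transgenic mice, at 0.10 (limma-voom), 0.010 (FPKM plus 0.1, filtered or not, and plus 1) and 0.018 (replicate block). Limma-voom put Grm4 at 0.026 for vestitol, and the contrast's groups only put Grm7 at -0.00010 for salviolone. With the hypothalamus score Grm5 was at 0.0065 for vestitol, Grm2 at 0.036 for the combination against the model control and Grm3 at 0.045 against the single compounds. With the striatum score Grm3 was at 0.024 for salviolone, Grm4 at -0.21 and -0.39 for the combination against the model control and the single compounds, and Grm3 at -0.040 and Grm5 at -0.0099 for vestitol against salviolone. Without the 3 deepest libraries Grm4 was at -0.033 and -0.091 and Grm8 at 0.046 and 0.014 against the model control and the single compounds.

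Ranges that crossed 0 without 1 mouse were, against wild type, -0.094 to 0.16 (Grm2) and -0.049 to 0.11 (Grm8) for the model control and -0.064 to 0.19 (Grm2) and -0.049 to 0.065 (Grm8) for all transgenic mice. For vestitol they were -0.049 to 0.032 (Grm3), -0.075 to 0.074 (Grm4), -0.076 to 0.039 (Grm5), -0.048 to 0.0045 (Grm7) and -0.15 to 0.0090 (Grm8). They were -0.027 to 0.023 (Grm7) for salviolone, -0.039 to 0.0027 (Grm7) for vestitol against salviolone and -0.0086 to 0.13 (Grm4) for the combination against the single compounds.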
